A study of Homo sapiens with 12 samples.

Results

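Processed pseudogenes are gene copies made when the mRNA of a parent gene is reverse transcribed and inserted elsewhere in the genome. The members described here are all genes of the deposited tables that GENCODE 29 types as processed_pseudogene or transcribed_processed_pseudogene and places outside chromosome 7. They number 1444 of 15074 genes, or 9.58% of the tables, with 1350 of the first type and 94 of the second. A further 77 processed pseudogenes lie on chromosome 7 and serve only as a comparison. GENCODE 29 lists 10084 such genes outside chromosome 7, so the members are the 14.3% that appear in the tables, and a gene high in a single group could enter through that group alone. Of the members, 1442 have a symbol in the symbol table, which for 305 is only the Ensembl identifier.

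RNA was measured in HCT116, a human colorectal carcinoma line obtained from ATCC, as 4 groups of 3 libraries. One group was parental cells and another the AGO2 knockout. The remaining groups were knockout cells that express FH-AGO2_WT (FH-WT here) or FH-AGO2_5xA (FH-5xA here), so both of these reconstituted groups carry the knockout too. Wells were seeded with 500000 cells and collected after 48 h, and ribosomal RNA was depleted from total RNA, which was treated with DNase on the column, before stranded libraries were made. How many clones stand behind each line, which promoter drives the transgenes and what the FH tag is were not given in the sources used here. AGO2 is an Argonaute protein, which binds a microRNA and through it finds the mRNAs to silence, and the series concerns a cycle of Argonaute phosphorylation.

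The measurements are 5 tables of group comparisons made with edgeR by the authors, with no value per library, so neither the depth nor the spread of single libraries is known here. Each log2 fold change is given with a standard error (SE) derived from the deposited likelihood ratio score, and a gene is called at a false discovery rate under 0.05. Fitted group levels in CPM (counts scaled to library size) were derived from the deposited fold changes and mean expression and carry no error of their own. A p-value here rests on edgeR's estimate of the spread among replicate libraries of the same groups and says nothing of independently made lines. In these bulk libraries fewer cells of a kind and less RNA per cell cannot be told apart. In the authors' deposited tables AGO2 itself fell by 0.35 ± 0.07 from parental to knockout cells and rose again from there, by 0.75 ± 0.07 (FH-WT) and 0.73 ± 0.07 (FH-5xA). Of 8 markers of a colorectal epithelial line, 5 are in the tables (CDH1, CDX2, EPCAM, KRT18 and KRT8, with mean expression from 3.38 to 9.65 log2 CPM), against 1 of 5 fibroblast markers (COL1A1, at 1.64), 0 of 4 endothelial markers and 0 of 5 blood markers.

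A processed pseudogene is a copy of spliced mRNA, so it lacks its parent's introns and usually its promoter, and most gather mutations that end their reading frame. Many come from genes with abundant mRNA in the germ line, among them those of ribosomal proteins, translation factors and other household proteins. Where a copy remains close to its parent in sequence, a short read from the parent's mRNA can match the copy as well, which makes the level of a pseudogene harder to measure than that of a unique gene.

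The kinship is visible in the letters. The 7 pairs below are those that the results turn on, each as 75 bases, the cycle number of the sequencing kit, taken from the GENCODE 29 transcript of the pseudogene and from the coding sequence of its parent (GRCh38). Capitals mark the bases at which the copies differ. Each stretch spans a junction between 2 exons of the parent, which the pseudogene holds without an intron. The first 3 copies have a parent on the left part of chromosome 7, and the other 4 carry the difference between FH-5xA and FH-WT. CBX3P9 lies at chr6:116453101-116453175 on the minus strand and differs from CBX3, which encodes a heterochromatin protein, at 2 bases. NDUFA4P1 lies at chr1:107505206-107505280 on the plus strand and differs from NDUFA4, which encodes a respiratory chain subunit, at 2 bases. PSMA2P3 lies at chr2:202179380-202179454 on the plus strand and differs from PSMA2, which encodes a proteasome subunit, at 5 bases. ATP5MKP1 lies at chrX:74173931-74174005 on the plus strand and differs from ATP5MK, which encodes a small subunit of ATP synthase, at 4 bases. SETP3 lies at chr17:58476637-58476711 on the minus strand and differs from SET, which encodes a histone chaperone, at 4 bases. SUMO2P6 lies at chr5:174561892-174561966 on the plus strand and differs from SUMO2, which encodes a ubiquitin-like modifier, at 3 bases. KRT18P4 lies at chr20:49957123-49957197 on the plus strand and differs from KRT18, which encodes an epithelial keratin, at 6 bases.
CBX3P9: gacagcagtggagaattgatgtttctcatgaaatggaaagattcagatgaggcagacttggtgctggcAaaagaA
CBX3: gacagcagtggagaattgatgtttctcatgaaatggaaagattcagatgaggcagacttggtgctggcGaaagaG
NDUFA4P1: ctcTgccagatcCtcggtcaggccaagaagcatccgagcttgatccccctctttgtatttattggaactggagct
NDUFA4: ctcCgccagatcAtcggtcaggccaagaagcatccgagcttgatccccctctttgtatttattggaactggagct
PSMA2P3: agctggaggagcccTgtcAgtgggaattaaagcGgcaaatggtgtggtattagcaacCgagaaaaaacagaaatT
PSMA2: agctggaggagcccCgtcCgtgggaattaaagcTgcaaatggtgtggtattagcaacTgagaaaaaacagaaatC
ATP5MKP1: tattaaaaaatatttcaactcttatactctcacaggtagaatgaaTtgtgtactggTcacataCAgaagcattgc
ATP5MK: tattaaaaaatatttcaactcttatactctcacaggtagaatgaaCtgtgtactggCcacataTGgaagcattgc
SETP3: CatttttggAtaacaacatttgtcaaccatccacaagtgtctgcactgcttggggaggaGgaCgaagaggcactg
SET: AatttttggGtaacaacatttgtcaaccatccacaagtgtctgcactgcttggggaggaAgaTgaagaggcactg
SUMO2P6: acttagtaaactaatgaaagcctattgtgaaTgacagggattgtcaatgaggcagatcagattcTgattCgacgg
SUMO2: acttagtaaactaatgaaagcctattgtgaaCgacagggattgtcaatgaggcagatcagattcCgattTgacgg
KRT18P4: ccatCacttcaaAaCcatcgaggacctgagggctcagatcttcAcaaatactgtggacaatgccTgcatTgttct
KRT18: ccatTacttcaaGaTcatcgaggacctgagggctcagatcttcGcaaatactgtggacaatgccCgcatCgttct

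Among all members, the identity of the aligned part to the parent had a median of 94.4% and ran from 69.5% to 100%. The transcripts had a median length of 833 bases (127 to 8637) and a median GC content of 45.9%. A parent was found by symbol for 1074 members and by sequence alignment for 1440, and where both were found they were the same gene in 1058 of 1073 members (98.6%). The symbol parents that are themselves in the tables serve 1056 members and are 682 different genes, so members that share a parent are not independent. KRT18 has 17 of these copies, KRT8 and RPL5 have 12 each, RPL7A and RPS4X have 9 each, EEF1A1 has 8, ST13 has 7 and BTF3 has 6.

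Exact sharing of reads with a coding mRNA was limited for most members but large for some. The median member had 1.76% of its 75-base windows present letter for letter in a protein-coding transcript. For 527 members (36.5%) that share was 0, and for 241 it was over 20%. How reads that match several places were counted, and whether counting used the strand, was not given in the sources used here. Of the members, 673 overlap no other gene, 335 lie in an intron of a gene on the other strand and 286 in an intron on the same strand. A further 102 overlap an exon on the other strand and 48 an exon on the same strand. For members that overlap another gene, RNA of that gene cannot be told apart from RNA of the pseudogene.

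Members were expressed at low levels. Their mean expression had a median of 2.64 log2 CPM and ran from -0.95 to 10.08, against a median of 5.03 for protein-coding genes, without allowance for length. On the same scale, without allowance for length, the median member stood 4.37 below its parent, and 53 members stood above it. Their summed fitted level was 4.19% of the total in parental cells, 3.76% in the knockout, 3.96% with FH-WT and 3.85% with FH-5xA, so the parental share was the largest of the 4.

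The 5 members with the highest mean expression were NPM1P27, RPLP0P6, HSP90AA2P, RPL4P4 and HSP90AB3P, copies of genes for a nucleolar chaperone, ribosomal proteins and cytosolic heat shock proteins. Per kilobase of transcript their mean levels over the groups were 1307 CPM for NPM1P27, 993 for RPLP0P6, 472 for RPL4P4, 355 for HSP90AA2P and 277 for HSP90AB3P. NPM1P27 had fitted levels of 1138 CPM in parental cells, 909 in the knockout, 1282 with FH-WT and 1009 with FH-5xA, and the rise of 0.50 ± 0.16 in FH-WT against the knockout was its one call in the authors' deposited tables. RPL4P4 stayed between 590 and 629 CPM in the 4 groups and was called in none of the 6 comparisons. Of their transcripts, 42.3% of the windows of NPM1P27, 37.8% of RPLP0P6 and 24% of RPL4P4 are shared with coding mRNAs. How much of these levels is reads of NPM1, RPLP0 or RPL4 was not tested.

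In the knockout against parental cells the pseudogenes moved mostly down. Of 1444 members, 305 fell and 87 rose. Together 27.1% of members were called, against 44.4% of all genes, with 6.02% of members higher against 23.2% of all genes and 21.1% lower against 21.2%. Lower calls thus outnumbered higher calls among the members, while higher calls outnumbered lower calls among all genes. The median log2 fold change of the members was -0.17, against -0.01 over all genes. The 11237 protein-coding genes outside chromosome 7 had 2790 higher and 2418 lower.

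Lower calls outnumbered higher calls in each of 5 classes of mean expression. Under 1 log2 CPM, 34 of 312 members fell and 17 rose, where 104 of 687 protein-coding genes fell and 164 rose. At 6 log2 CPM or more, 44 of 142 members fell and 6 rose, where 998 of 3689 protein-coding genes fell and 891 rose. Type, place and shared windows made little difference to the median. It was -0.18 for processed and -0.14 for transcribed processed pseudogenes, -0.15 for members that overlap no other gene and -0.20 for the 527 members with no shared window.

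**Figure D1:**
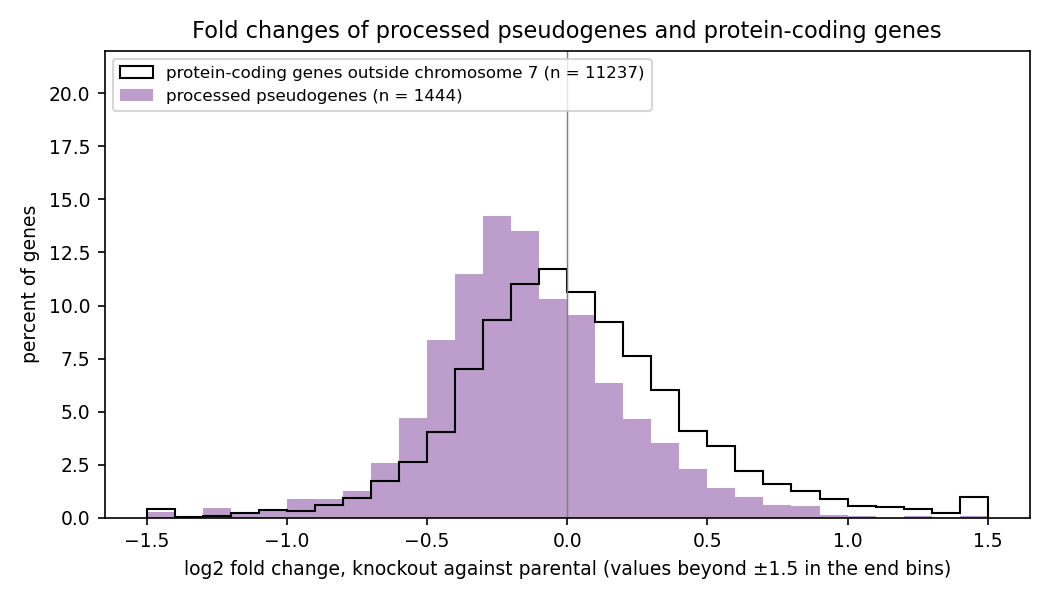
Share of genes (y axis, percent) by log2 fold change in the knockout against parental cells (x axis), for the 1444 processed pseudogenes (filled) and the 11237 protein-coding genes outside chromosome 7 (line). The pseudogenes are shifted to the left of 0, with a median of -0.17.

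The members with the largest falls in the knockout, among those with mean expression of at least 0 log2 CPM, were IPO5P1, CBX3P1, POLD2P1, H2AZ2P1 and HMGN2P4. IPO5P1, a copy of the importin gene IPO5, had fitted levels of 3.24 CPM in parental cells, 1.19 in the knockout, 1.36 with FH-WT and 1.46 with FH-5xA, a fall of 1.44 ± 0.26 in the authors' deposited table for the knockout. It overlaps an exon of another gene on the same strand, and its parent IPO5 was at -0.23 ± 0.08 in the same authors' deposited table. CBX3P1 went from 3.10 CPM in parental cells to 1.15 in the knockout and stayed at 1.24 with FH-WT and 1.22 with FH-5xA, with a log2 fold change of -1.43 ± 0.22 in the authors' deposited table. All 3 knockout-derived groups thus lay below parental cells for both genes. POLD2P1, whose parent encodes a subunit of DNA polymerase delta, was at -1.42 ± 0.28, and H2AZ2P1, whose parent encodes a histone variant, was at -1.42 ± 0.21 in the authors' deposited table. HMGN2P4, from a nucleosome-binding protein gene, was at -1.33 ± 0.58 in the authors' deposited table, the least certain of the 5, with an adjusted p of 0.049 in edgeR. CBX3P1, POLD2P1 and H2AZ2P1 have a parent on the left part of chromosome 7, whose copies are described below.

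The largest rises under the same rule were smaller. EZRP1, a copy of the gene for ezrin, which ties the membrane to actin, had fitted levels of 0.89 CPM in parental cells, 2.17 in the knockout, 1.54 with FH-WT and 1.94 with FH-5xA. Its log2 fold change in the knockout was 1.28 ± 0.24 in the authors' deposited table, while its parent EZR was at -0.22 ± 0.11 and was not called. KRT8P4 rose by 1.05 ± 0.22, HSPB1P2, from a small heat shock protein gene, by 0.91 ± 0.25, RPSAP52 by 0.86 ± 0.26 and PPM1AP1, from a phosphatase gene, by 0.86 ± 0.31 in the authors' deposited table. RPSAP52 overlaps an exon of HMGA2 on the other strand, and without strand in the counting their reads cannot be told apart.

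Grouped by the role of the parent, the copies of chromatin genes had the largest share of falls. The 9 groups were set by patterns of parent symbols. Among copies of chromatin, histone chaperone and high mobility group genes, 27 of 50 fell and 0 rose in the knockout against parental cells, with a median of -0.52. Beside this group, 21.2% of all genes fell and 23.2% rose. Of the 20 parents of that group in the tables, 15 fell and 0 rose, with a median of -0.50. CBX3P9, for example, went from a fitted 76.5 CPM in parental cells to 32.5 in the knockout, 33.4 with FH-WT and 34.2 with FH-5xA, a log2 fold change of -1.24 ± 0.11 for the knockout in the authors' deposited table. The 3 members of this group with the smallest p, CBX3P9, CBX3P1 and H2AZ2P1, all have a parent on the left part of chromosome 7. How many of the 27 falls are copies of genes there is not given here, so the role and the place of the parents are not separated.

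Copies of genes for RNA-binding and splicing proteins followed, with 25 of 65 lower, 1 higher and a median of -0.33. Their 36 parents had 16 lower and 4 higher, with a median of -0.24. The shares of all genes were 21.2% lower and 23.2% higher. Examples are SNRPGP2, from a spliceosome protein gene, at -0.58 ± 0.11, SRSF6P2, from a splicing factor gene, at -0.38 ± 0.08, and HNRNPKP4 at -0.34 ± 0.08 in the authors' deposited table for the knockout. The parents SNRPG at -0.37 ± 0.08, SRSF6 at -0.26 ± 0.07 and HNRNPK at -0.34 ± 0.09 fell as well in the same authors' deposited table.

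The largest group was that of the cytosolic ribosomal proteins, with 161 copies of which 39 fell (24.2%) and 2 rose (1.24%), at a median of -0.22. The share of falls lay near the 21.2% of all genes, while that of rises was below their 23.2%. Of its 65 parents 29 fell and 0 rose, with a median of -0.26. RPL12P4 was at -0.79 ± 0.14, RPS29P5 at -1.0 ± 0.16 and RPL10P13 at -1.27 ± 0.17 in the authors' deposited table. Their parents differed: RPL12 was at -0.49 ± 0.07 and RPS29 at -0.37 ± 0.10, both called, and RPL10 at -0.10 ± 0.10 missed the threshold in the authors' deposited table. Ribosomal protein genes have many near-identical copies, and how their reads were shared out is not known.

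Copies of chaperone genes had 8 of 32 lower and 1 higher, among them PPIAP22, from the cyclophilin A gene, at -1.10 ± 0.09, FKBP4P1 at -0.40 ± 0.12 and TCP1P3 at -0.29 ± 0.08 in the authors' deposited table. PPIA, the parent of PPIAP22, lies on the left part of chromosome 7. Copies of translation factor genes had 7 of 38 lower and 3 higher, with EIF4A2P4, from an RNA helicase gene, at 0.71 ± 0.15 and EIF1AXP1, from an initiation factor gene, at -0.59 ± 0.10 in the authors' deposited table. Cytoskeleton copies had 15 of 53 lower and 7 higher. Copies of mitochondrial energy genes had 5 lower and 5 higher of 57, those of ubiquitin, SUMO and proteasome genes 4 and 4 of 36, and those of carbon metabolism enzymes 2 lower and 1 higher of 24. In these last 3 groups falls and rises were thus about even, and most copies were called in neither direction. The shares of all genes, beside which each count of this paragraph stands, were 21.2% lower and 23.2% higher.

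**Figure D2:**
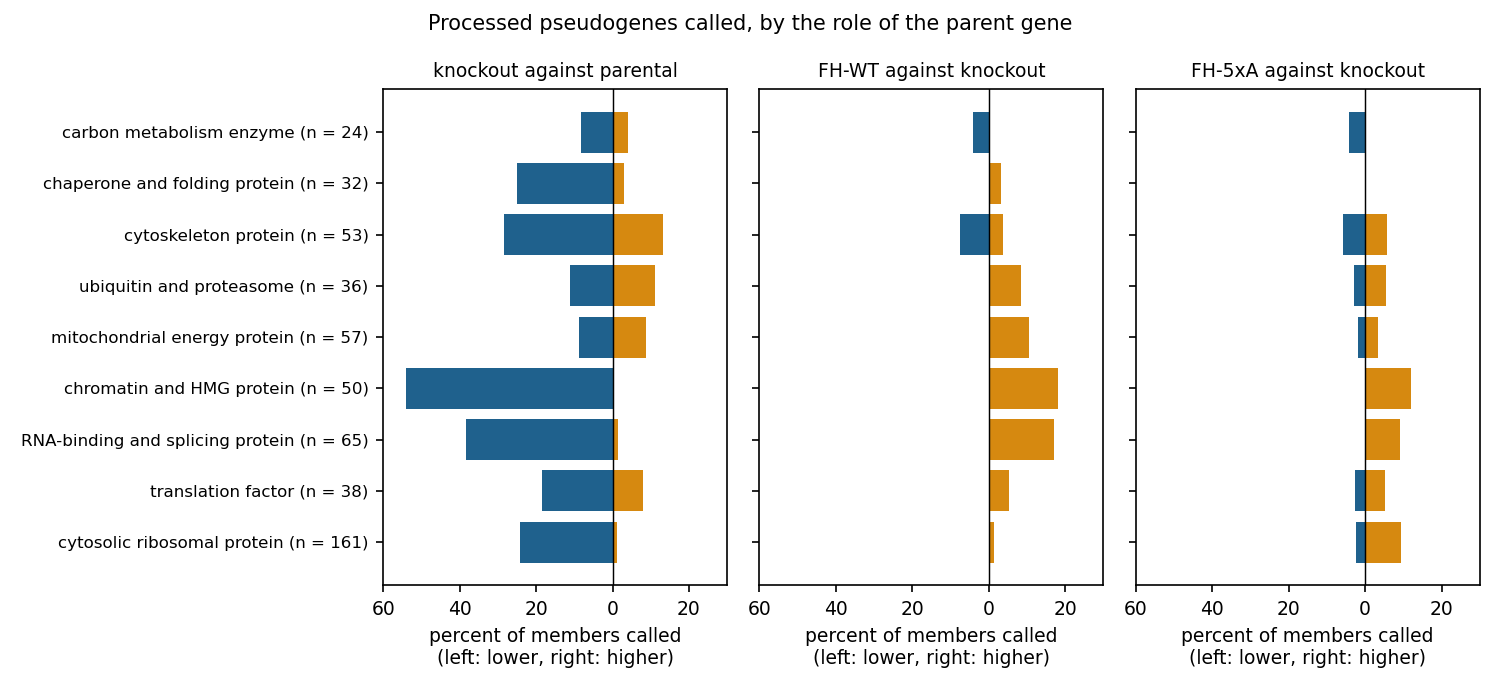
Percent of members called lower (left) and higher (right) in the knockout against parental cells and in FH-WT and FH-5xA against the knockout, for the 9 groups by role of the parent gene. Copies of chromatin genes had 27 of 50 lower and 0 higher in the first of these, and 9 and 6 of 50 higher in the others. Of all genes, 21.2% were lower and 23.2% higher in the first, and 4.21% and 5.04% were higher in the others.

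The fold change of a pseudogene tracked that of its parent in this comparison. Over the 1056 members with a measured symbol parent, the fold changes in the knockout against parental cells had a Pearson r of 0.76 and a Spearman rho of 0.73, given as a description across genes that share libraries and, in part, parents. The difference between copy and parent lay within 2 combined SE in 1005 pairs (95.2%), with 25 copies above and 26 below that range. The combined SE treats copy and parent as independent. Of the 284 called members with such a parent, 231 had a parent called in the same direction, 3 had one called in the opposite direction and 50 had one that was not called. Of all genes, 44.4% were called in this comparison.

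The relation was present where no 75-base window is shared. In the 376 pairs of such members r was 0.68, and in the 251 of them where both genes had at least 1 log2 CPM it was 0.77. By identity, r was 0.55 over the 117 pairs under 90%, 0.74 over the 466 from 90% to 95%, 0.86 over the 329 from 95% to 98% and 0.82 over the 143 at 98% or more. The value was thus lowest for the most diverged copies. Reads that match the copy with a mismatch were not counted here, and their part in the relation was not tested.

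Protein-coding genes that overlap a pseudogene, called hosts here, showed no such relation. For the 193 members that overlap a measured protein-coding gene on the same strand, r between the fold change of the member and that of the host was 0.09 in the knockout against parental cells. For the 239 members that overlap such a gene only on the other strand it was 0.03. The median of the hosts was 0.11 on the same strand and 0.09 on the other, while the medians of their pseudogenes were -0.13 and -0.21.

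**Figure D3:**
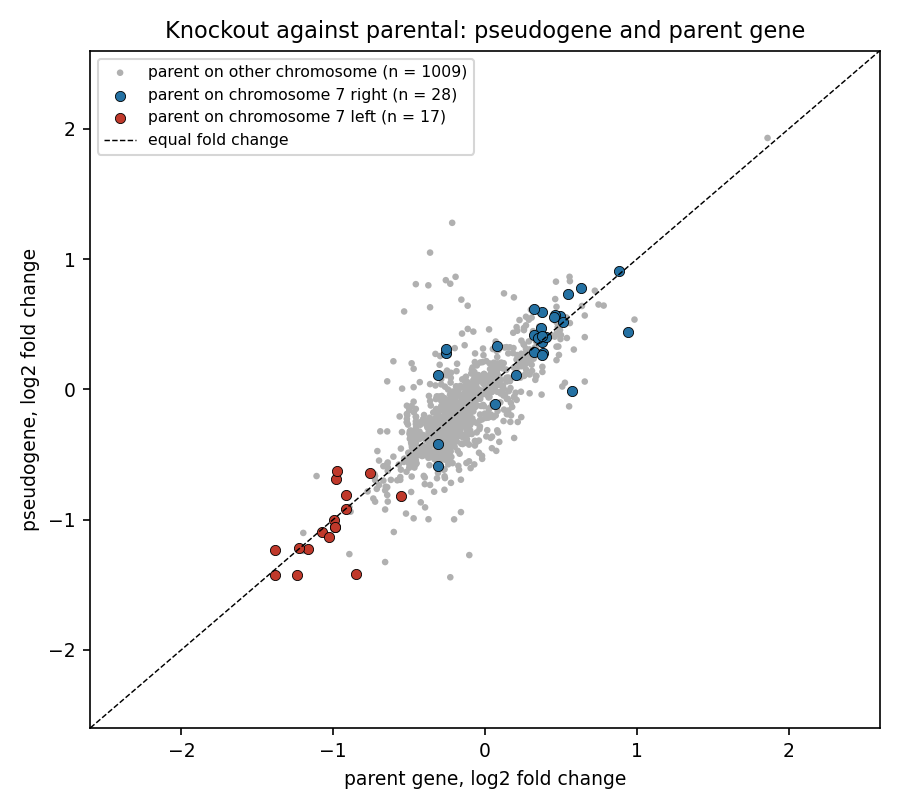
Log2 fold change of each pseudogene (y axis) against that of its symbol parent (x axis) in the knockout against parental cells, with parents on the left (17) and right (28) parts of chromosome 7 in colour and the dashed line at equal values. The points lie along the line (r = 0.76), with the copies of left parents at its lower end.

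Pseudogenes were also grouped by the place of their parent on chromosome 7 and by their own place there. These groups were not matched for expression or shared windows, and the cause of any difference between them was not tested. In the knockout against parental cells, 158 of 173 protein-coding genes on its left part (ending by 50 Mb) fell and 5 rose, with a median of -0.96. On its right part (starting from 70 Mb) 270 of 356 rose and 5 fell, with a median of 0.51. Members lie on other chromosomes by definition, and those with a parent on chromosome 7 were looked at because of values already seen. By symbol, 17 members have a parent on the left part, and 17 of them fell and 0 rose, with a median of -1.06. By sequence there are 23, of which 22 fell and 0 rose, again with a median of -1.06. Of the 9 of these with no shared window, 8 fell. Beside these counts, 21.2% of all genes fell and 23.2% rose.

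CBX3P9 on chromosome 6 fell by 1.24 ± 0.11 and its parent CBX3 by 1.39 ± 0.10 in the authors' deposited table for the knockout. NDUFA4P1 on chromosome 1 had fitted levels of 34.1 CPM in parental cells, 14.7 in the knockout, 16.2 with FH-WT and 14.2 with FH-5xA, so all 3 knockout-derived groups lay together below parental cells. It fell by 1.22 ± 0.13 and NDUFA4 by 1.23 ± 0.14 in the authors' deposited table. PSMA2P3 on chromosome 2, which shares no window, had 3.53 CPM in parental cells against 1.69, 1.71 and 1.58 CPM in the knockout, FH-WT and FH-5xA. It fell by 1.06 ± 0.18 and PSMA2 by 0.99 ± 0.12 in the authors' deposited table. EIF2AK1P1, at 87.1% identity to the gene of a kinase that senses heme, fell by 1.01 ± 0.17 and EIF2AK1 by 1.0 ± 0.09 in the authors' deposited table. The one member of the 23 that was not called was ENSG00000270558, at -0.17 ± 0.12 in the authors' deposited table, and its identity to CBX3 is 78.4%.

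Copies of genes on the right part went the other way. By symbol, 17 of 28 rose and 1 fell, with a median of 0.40. By sequence it was 23 of 40 and 1, with the same median. Beside these counts, 23.2% of all genes rose and 21.2% fell in the knockout against parental cells. NAMPTP1, from the gene of an enzyme of NAD synthesis, rose by 0.57 ± 0.08 where NAMPT rose by 0.46 ± 0.09, and SRIP3, from a calcium-binding protein gene, rose by 0.77 ± 0.19 where SRI rose by 0.63 ± 0.10 in the authors' deposited table. The one fall was MESTP3 at -0.59 ± 0.17, and its parent MEST fell too, by 0.31 ± 0.09 in the authors' deposited table.

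Pseudogenes that lie on chromosome 7 but have a parent elsewhere did not show the medians of the coding genes around them. On the left part 4 of 22 fell and 0 rose, with a median of -0.12. On the right part 5 of 26 fell and 2 rose, with a median of -0.23. Of all genes, 21.2% fell and 23.2% rose in the knockout against parental cells. On both parts the share of falls thus lay near that of all genes, and the share of rises was below it. With the 69 members that have a parent on chromosome 7 by either rule left out, 1375 members remain. By sequence, the 1334 members with a parent on another chromosome had 273 lower, 61 higher and a median of -0.18.

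**Figure D4:**
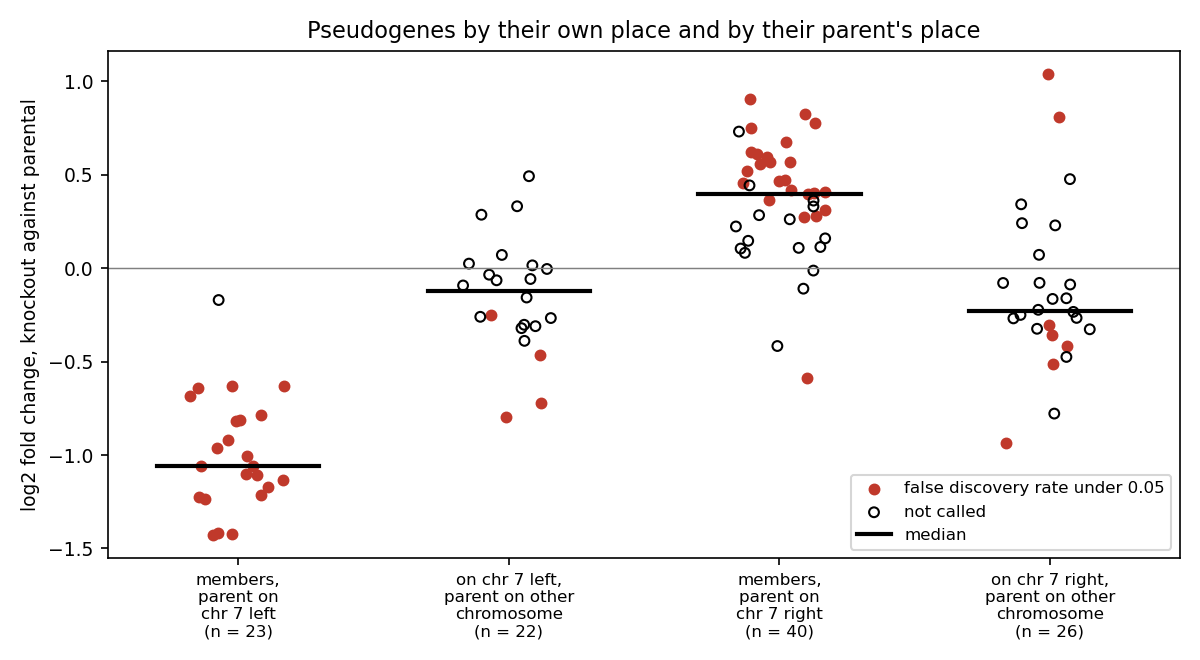
Log2 fold change in the knockout against parental cells (y axis) of members whose parent by sequence lies on the left or right part of chromosome 7, each beside the pseudogenes on that part whose parent lies elsewhere. Filled points are called, open points are not, and bars are medians (-1.06, -0.12, 0.40 and -0.23 from left to right).

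Some copies parted from their parent. Of the pairs with both genes at 1 log2 CPM or more, RPL10P13 was the farthest apart in combined SE, at -1.27 ± 0.17 against -0.10 ± 0.10 for RPL10 in the authors' deposited table for the knockout, a difference of -1.17 ± 0.20. It lies in an intron of another gene on the same strand and shares no window with a coding mRNA. ZNF101P2, from a zinc finger gene, rose by 0.80 ± 0.22 where ZNF101 fell by 0.37 ± 0.10, a difference of 1.17 ± 0.24 in values of the authors' deposited table. HSPD1P11, a copy of the mitochondrial chaperonin gene, rose by 0.69 ± 0.15 where HSPD1 was at -0.16 ± 0.09 and missed the threshold in the authors' deposited table. HTR7P1, from a serotonin receptor gene, was at -0.13 ± 0.12 and was not called, where HTR7 rose by 0.55 ± 0.07 in the authors' deposited table. RPS29P5 fell by 1.0 ± 0.16, more than RPS29 at -0.37 ± 0.10, and RPL7P21 was at 0.16 ± 0.17 where RPL7 fell by 0.47 ± 0.08 in the authors' deposited table. By sequence the closest coding transcript of RPL7P21 belongs to RPL7L1, which was at -0.03 ± 0.07 in the authors' deposited table. HTR7P1 overlaps an exon of another gene on the same strand. HSPD1P11 lies in an intron of RHOBTB3 on the same strand, and RPL7P21 in an intron of NR3C1 on the other strand.

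Against the knockout, FH-WT moved few pseudogenes and mostly up. Of 1444 members 76 rose and 11 fell, 6.02% in all against 10.1% of all genes, with 5.26% higher against 4.21% and 0.762% lower against 5.85%. The median was 0.08, against 0.01 over all genes. FH-5xA gave 68 higher and 33 lower, 6.99% against 11.3% of all genes, with 4.71% higher against 5.04% and 2.29% lower against 6.24%, and a median of 0.04. Both comparisons use the same knockout libraries, so their values for 1 member are not independent.

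Copies of genes for RNA-binding proteins and chromatin proteins made up part of the rises. In FH-WT 11 of 65 RNA-binding copies rose and 0 fell, and in FH-5xA 6 rose and 0 fell. For chromatin copies it was 9 of 50 higher in FH-WT and 6 in FH-5xA, with 0 lower in either. Ribosomal protein copies had 2 of 161 higher and 0 lower in FH-WT, and 15 higher and 4 lower in FH-5xA. Of all genes, 4.21% were higher and 5.85% lower in FH-WT, and 5.04% were higher and 6.24% lower in FH-5xA. The ribosomal protein copies higher in FH-WT thus lay below the share of all genes. Members with a chromosome 7 left parent by sequence stayed near the knockout: their medians were 0.04 with FH-WT and 0.07 with FH-5xA against the knockout, with 0 higher and 0 lower in the first and 1 higher and 2 lower in the second. Those called were ACTBP2 (higher), ENSG00000249774 and ENSG00000250202.

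Among called members with mean expression of at least 0 log2 CPM, to which the largest changes named here refer, the rises in FH-WT against the knockout included ENSG00000232499, a copy of HNRNPA3, at 1.17 ± 0.33, and ATP5MC2P1, from an ATP synthase gene, at 1.17 ± 0.38 in the authors' deposited table. Neither parent was called there, with HNRNPA3 at -0.07 ± 0.11 and ATP5MC2 at 0.06 ± 0.12 in the authors' deposited table. The largest falls were ENSG00000263648, a copy of a dynein light chain gene, at -0.78 ± 0.27, KRT18P13 at -0.66 ± 0.23 and KRT18P4 at -0.63 ± 0.20 in the authors' deposited table. In FH-5xA against the knockout the largest rises were SLC25A6P2, from an ADP/ATP carrier gene, at 1.21 ± 0.37, CKS1BP6, from a cell cycle gene, at 1.15 ± 0.27, and ENSG00000277952, a copy of SNRPC, at 1.08 ± 0.30 in the authors' deposited table. The largest falls there were ENSG00000249774, a copy of TOMM7, at -0.98 ± 0.21, ENSG00000220739, a copy of NT5DC1, at -0.80 ± 0.15, and HSPD1P11 at -0.77 ± 0.15 in the authors' deposited table. SLC25A6P2, CKS1BP6 and ENSG00000277952 have mean expression near 0 log2 CPM, where errors are wide.

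In 5 members, 0.346% of 1444, the change of the knockout was called in the opposite direction in both reconstituted lines, against 415 of all genes (2.75%). MTHFD2P7, a copy of a mitochondrial folate enzyme gene, had fitted levels of 27.9 CPM in parental cells, 16.2 in the knockout, 23.0 with FH-WT and 20.9 with FH-5xA. It was at -0.78 ± 0.10, 0.51 ± 0.10 and 0.37 ± 0.10 in the authors' deposited tables for the knockout against parental cells and for FH-WT and FH-5xA against the knockout. Its parent MTHFD2 was at -0.77 ± 0.09, 0.33 ± 0.09 and 0.26 ± 0.09 in the same authors' deposited tables. RALGAPA1P1 rose in the knockout by 0.39 ± 0.09 and fell with FH-WT by 0.33 ± 0.09 and with FH-5xA by 0.38 ± 0.09, and its parent RALGAPA1, a GTPase-activating protein gene, was at 0.54 ± 0.09, -0.27 ± 0.09 and -0.37 ± 0.09 in the authors' deposited tables. Of its windows 64.2% are shared.

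EIF1AXP1 fell by 0.59 ± 0.10 in the knockout and rose by 0.30 ± 0.10 and 0.44 ± 0.10 with FH-WT and FH-5xA in the authors' deposited tables, while EIF1AX was called in none of the 3. RNPS1P1, from the gene of an exon junction protein, fell by 0.31 ± 0.11 and rose by 0.35 ± 0.11 with FH-WT and likewise with FH-5xA in the authors' deposited tables. HMGB1P8, from the gene of a DNA-bending protein, had 4.12 CPM in parental cells, 2.45 in the knockout, 4.4 with FH-WT and 4.03 with FH-5xA, so the knockout stood alone below the other 3 groups. It was at -0.75 ± 0.22, 0.85 ± 0.24 and 0.72 ± 0.23 in the authors' deposited tables, and of these 3 comparisons HMGB1 was called only in the knockout against parental cells, at -0.64 ± 0.16. The test against parental cells and those against the knockout share the knockout libraries, so an error in those libraries would move them in opposite directions.

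Against parental cells, 211 members were lower in FH-WT and 109 higher, 22.2% in all against 34.4% of all genes, with 7.55% higher against 18.3% and 14.6% lower against 16.1%. In FH-5xA 292 were lower and 109 higher, 27.8% against 43.8% of all genes, with 7.55% higher against 22.9% and 20.2% lower against 20.9%. The medians were -0.06 and -0.11, and 0 for all genes to 2 decimals. These comparisons share their parental libraries with each other and with the knockout comparison.

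Among called members with mean expression of at least 0 log2 CPM, HSPB1P2 had the largest rise in FH-5xA, with fitted levels of 1.92 CPM in parental cells, 3.60 in the knockout, 4.93 with FH-WT and 6.50 with FH-5xA, and was at 1.36 ± 0.25 in FH-WT and 1.76 ± 0.24 in FH-5xA against parental cells in the authors' deposited tables. Its parent HSPB1, which lies on the right part of chromosome 7, was at 1.20 ± 0.21 and 1.05 ± 0.20 in those authors' deposited tables. HNRNPA3P10 rose by 1.48 ± 0.37 and 1.43 ± 0.36, and CYP4F33P, from a cytochrome P450 gene, by 1.06 ± 0.23 and 1.26 ± 0.22 in the authors' deposited tables. Within the same limit ENSG00000249774 fell furthest in FH-5xA, by 1.77 ± 0.20, followed by ENSG00000250202, a copy of CCZ1B, by 1.57 ± 0.19, and CBX3P1 by 1.35 ± 0.22 in the authors' deposited table for FH-5xA against parental. In FH-WT the largest falls were HMGN2P4 by 2.0 ± 0.63, PSMA2P2 by 1.36 ± 0.34 and ENSG00000188512, a copy of the cytochrome c gene CYCS, by 1.35 ± 0.17 in the authors' deposited table. All of these members with the largest falls except HMGN2P4, in FH-5xA and in FH-WT, have a parent on the left part of chromosome 7. ATP5MC2P1 rose by 1.33 ± 0.39 in FH-WT against parental cells in the authors' deposited table.

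No deposited table used here compares FH-5xA with FH-WT, so their difference was derived from the 2 comparisons against the knockout, with a variance from all 5 tables and Benjamini-Hochberg adjustment over 15072 genes. Of 1444 members 88 differed, 28 higher and 60 lower in FH-5xA. That is 6.09% of members against 4.11% of all genes, with 1.94% higher against 1.98% and 4.16% lower against 2.13%. The median difference was -0.05, against 0.01 over all genes. With the variance taken instead as the plain sum of the squared SEs against the knockout, 0 members passed that chi-square test, while 156 had an unadjusted p under 0.05, so the calls rest on how the variance was derived. At a mean expression of 6 log2 CPM or more, 17 of 142 members were lower and 2 higher, where 161 of 3689 protein-coding genes were lower and 38 higher.

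Copies and parents lay farther apart here than in the knockout against parental cells, measured in their SE. The derived differences of copy and parent had an r of 0.21 and a rho of 0.18 over the 1056 symbol pairs, and an r of 0.24 where both had at least 1 log2 CPM. In 890 pairs (84.3%) they lay within 2 combined SE, with 107 copies above and 59 below. Of 66 called members with a measured symbol parent, 7 had a parent called in the same direction, 0 had one called in the opposite direction and 59 had one that was not called. Only 4.11% of all genes were called in this difference, so a parent that was not called is the usual case and does not show that copy and parent part.

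ATP5MKP1 (ENSG00000231549), 177 bases long and within an intron of a gene on the other strand of chromosome X, had fitted levels of 59.8 CPM in parental cells, 54.0 in the knockout, 90.9 with FH-WT and 45.7 with FH-5xA. FH-WT was thus the high group and FH-5xA the low one. The derived difference FH-5xA minus FH-WT was -0.99 ± 0.26 (Benjamini-Hochberg adjusted p = 0.011). In the authors' deposited tables it was at 0.75 ± 0.26 in FH-WT, called, and at -0.24 ± 0.26 in FH-5xA, not called, against the knockout. Its parent ATP5MK was lower in FH-5xA as well, by a derived difference of -0.32 ± 0.09, and 11.7% of the windows of the copy are shared with a coding mRNA.

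SETP3 (ENSG00000266648), in an intron of a gene on the same strand of chromosome 17, had 26.8 CPM in parental cells, 17.7 in the knockout, 25.7 with FH-WT and 14.3 with FH-5xA. Parental cells and FH-WT were thus the high groups. The derived difference was -0.85 ± 0.20 (Benjamini-Hochberg adjusted p = 0.0035), and that of its parent SET was -0.29 ± 0.11, which was not called. SUMO2P6 (ENSG00000249031), which overlaps no other gene, had 7.22, 6.0, 8.05 and 4.47 CPM in parental, knockout, FH-WT and FH-5xA cells. Its derived difference was -0.85 ± 0.24 (Benjamini-Hochberg adjusted p = 0.018), and SUMO2 was at 0.09 ± 0.11 and was not called. Both copies share few windows with coding mRNAs, 2.17% for SETP3 and 1.4% for SUMO2P6.

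The smallest p values of the derived difference, Benjamini-Hochberg adjusted, were 2.28e-04 for ENSG00000249774 and 4.13e-04 for TUBBP1. ENSG00000249774, a copy of TOMM7, which encodes a subunit of the mitochondrial import channel, was at -1.12 ± 0.22 with fitted levels of 3.30 CPM with FH-WT and 1.52 with FH-5xA, and TOMM7 was at 0.00 ± 0.14. TUBBP1, a copy of a beta tubulin gene, had 81.0 CPM in parental cells, 55.5 in the knockout, 74.9 with FH-WT and 53.2 with FH-5xA, and a derived difference of -0.49 ± 0.10. Its parent TUBB was not analysed here. HNRNPKP2 was at -0.49 ± 0.10 and HNRNPKP4 at -0.26 ± 0.08, both called, where HNRNPK was at -0.25 ± 0.09 and was not called.

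Further copies lower in FH-5xA were NIFKP6, from the gene of a nucleolar protein, at -0.81 ± 0.18, DDX18P6, from an RNA helicase gene, at -0.62 ± 0.14, and ENSG00000227329, a copy of the histone methyltransferase gene SUV39H2, at -0.56 ± 0.13 in the derived difference. Their parents were at -0.23 ± 0.08 (NIFK), -0.20 ± 0.08 (DDX18) and -0.15 ± 0.07 (SUV39H2), none of them called. Each of these parents thus had the sign of its copy and a smaller value. ACTBP2, from the beta actin gene, went the other way, at 0.94 ± 0.22, with 2.56 CPM with FH-WT and 4.89 with FH-5xA, and ACTB was at 0.00 ± 0.09. The largest positive derived difference was that of HMGN2P4, at 2.0 ± 0.62, with fitted levels of 0.46 CPM in FH-WT and 1.87 in FH-5xA.

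**Figure D5:**
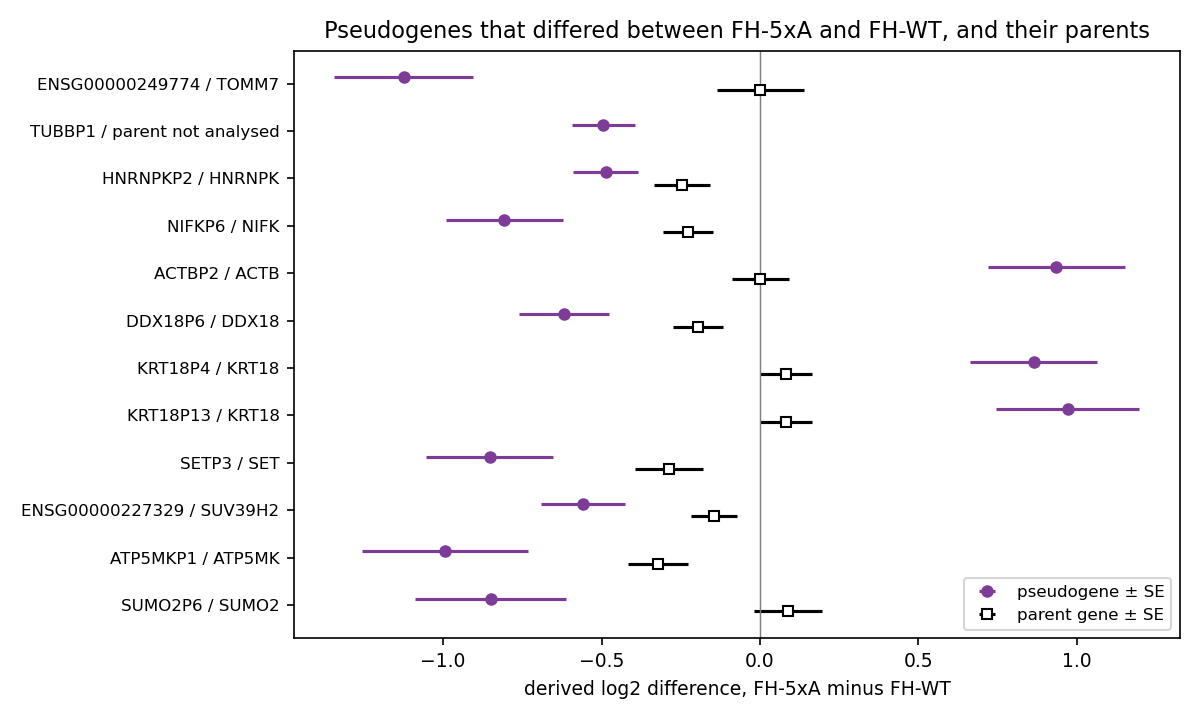
Derived log2 difference FH-5xA minus FH-WT (x axis) with SE for the named pseudogenes that differed (filled) and for their parents (open). ATP5MKP1, SETP3 and SUMO2P6 lie at -0.99, -0.85 and -0.85, and their parents lie closer to 0.

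The copies of keratin genes, looked at because of values already seen, stood on the higher side. KRT8 and KRT18 encode the paired intermediate filament proteins of simple epithelium and have 29 copies among the members. Of these 7 (24.1%) were higher in FH-5xA than in FH-WT, against 1.98% of all genes, and 0 lower, against 2.13%, with a median derived difference of 0.28. With the variance taken as the sum of the squared SEs against the knockout, 0 of them passed the threshold. KRT18P4 (ENSG00000229222, chromosome 20) had fitted levels of 6.32 CPM in parental cells, 5.45 in the knockout, 3.52 with FH-WT and 6.41 with FH-5xA, so FH-WT stood alone below the other 3 groups. Its derived difference was 0.86 ± 0.20. KRT18P13 had 3.25, 2.18, 1.38 and 2.70 CPM in the same order and a derived difference of 0.97 ± 0.23.

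The parents did not show that difference, with KRT18 at 0.08 ± 0.08 and KRT8 at 0.05 ± 0.16 in FH-5xA minus FH-WT, neither of them called. Against parental cells 20 of the 29 copies fell and 0 rose in FH-WT, with a median of -0.63, while 9 fell and 3 rose in FH-5xA, with a median of -0.26. Of all genes, 16.1% were lower and 18.3% higher in FH-WT, and 20.9% were lower and 22.9% higher in FH-5xA. KRT18 was at -0.65 ± 0.08 (FH-WT) and -0.57 ± 0.08 (FH-5xA), and KRT8 at -0.53 ± 0.16 and -0.48 ± 0.16, in the authors' deposited tables against parental. In the knockout 12 copies fell and 3 rose, with a median of -0.39, and the rises were those of KRT8P4, KRT8P46 and KRT18P31. There the shares of all genes were 21.2% lower and 23.2% higher. The 29 copies come from 2 parents and are alike in sequence, so they are not 29 independent observations. FH-WT against parental cells and the derived difference also share the FH-WT libraries.

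In FH-5xA minus FH-WT 6 of 161 ribosomal protein copies were higher and 3 lower, with RPL12P4 at 0.52 ± 0.15 among the higher ones. Copies of RNA-binding genes had 7 of 65 lower and 1 higher, and those of mitochondrial energy genes 6 of 57 lower and 1 higher. Those of cytoskeleton genes had 8 of 53 higher and 1 lower, but this group includes keratin copies described above, so its count is not a separate result. Of all genes, 1.98% were higher and 2.13% lower. Of the parents RPL12, RPS29 and RPL10, only RPL10 differed, at -0.41 ± 0.10, while its copy RPL10P13 was at 0.06 ± 0.21 and was not called. CBX3 was at -0.33 ± 0.10 and was called, while CBX3P9 was at 0.04 ± 0.11 and CBX3P1 at -0.03 ± 0.27, neither of them called.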

How the data were processed

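RNA-seq of 12 HCT116 samples (4 groups of 3) was used as 5 comparison tables made by the authors, whose tools were edgeR 3.8.6, featureCounts 1.4.6, TopHat2 2.0.12 and Cufflinks 2.2.1 on hg38/GRCh38, per the submitters' processing notes. Per the file headers, the deposited values are, for each gene, mean log2 CPM, log2 fold change, likelihood ratio score, p-value and false discovery rate. Counts per library were not analysed here, so the depth is unknown, precision comes only from the derived SEs, and the deposited tests replaced count models. Annotation, low-count filter, multiple matches and strand of counting were not given in the sources used here.

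SE was the absolute log2 fold change over the square root of the score. FH-5xA minus FH-WT was derived by solving the 5 squared SEs for group variances (chi-square test, 1 degree of freedom, Benjamini-Hochberg over 15072 genes, with 2 genes undefined, 0 of them members). On simulated data it recovered 56% of log2 changes of 0.5 and 95% of those of 1, with 11 false among 162 calls. The simulated scores were built from group variances that add up, so they cannot show whether the deposited scores behave that way. Fitted CPM levels average to the deposited mean over the 4 groups. Fold changes that are sums of others across the 5 tables differed from those sums by at most 4.62e-14 (log2).

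Member types, places and transcripts came from GENCODE 29, which holds 15029 of the table genes. Parents were found by symbol, or by BLAST 2.17.0 (plus strand, word size 16) against its coding transcripts. Python 3.11.15, pandas 2.3.3, numpy 2.4.6 and scipy 1.17.1 were used.

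Named members were the 3 markers ATP5MKP1, SETP3 and SUMO2P6, the 5 highest in mean expression, the 5 largest rises and 5 largest falls in the knockout (3 in each other comparison) among calls with mean expression of at least 0 log2 CPM, those opposite in both reconstituted lines, the 10 with the smallest p in FH-5xA minus FH-WT, up to 3 per role group, the 6 pairs farthest apart, and their parents. Some members that this rule names are not reported here. The members and lists were chosen with earlier results of these data known. Copies of chromosome 7 genes and of keratin genes, and the named exceptions, were singled out after their values were seen. Alternatives covered the threshold, expression and fold minimum, centring, overlap, gene type, chromosome 7, the variance of the derived difference and the parent rule.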

Additional observations from a re-analysis of the deposited data

Results flagged for a closer look

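FH-5xA minus FH-WT is the derived difference between the 2 reconstituted lines, in which line and protein cannot be told apart, and 88 members passed its chi-square test at a Benjamini-Hochberg adjusted p under 0.05. With the variance taken as the sum of the squared SEs against the knockout, 0 members passed. Among the named members, those lower in FH-5xA were ENSG00000249774 at -1.12, ATP5MKP1 at -0.99, SETP3 and SUMO2P6 each at -0.85, NIFKP6 at -0.81, DDX18P6 at -0.62, ENSG00000227329 at -0.56, DBF4P1 at -0.54, ENSG00000220739 at -0.51, TUBBP1 and HNRNPKP2 each at -0.49, ATP5MFP2 at -0.39 and HNRNPKP4 at -0.26 on the log2 scale. DBF4P1 copies a cell cycle kinase regulator whose parent DBF4 was lower too, at -0.28 ± 0.08, while ATP5MF, the parent of ATP5MFP2, was at -0.15 ± 0.14 and missed the threshold.

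Higher in FH-5xA were HMGN2P4 at 2.0, ACTBP2 at 0.94, RPL12P4 at 0.52 and 7 keratin copies: KRT18P13 at 0.97, KRT18P4 at 0.86, KRT18P15 at 0.74, KRT8P32 at 0.72, KRT8P36 at 0.57, KRT18P17 at 0.53 and KRT18P38 at 0.38. HMGN2P4 rests on the lowest fitted level of these, 0.46 CPM in FH-WT, and its parent HMGN2 was at 0.58 ± 0.21 and missed the threshold. Per the authors' deposited table, all 7 keratin copies fell in FH-WT against parental cells, from -0.71 for KRT18P17 to -1.24 for KRT18P13. These 7 were picked on a difference that uses the same FH-WT libraries, so their falls are not independent of it.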

How the results depend on the processing

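Counts of called members depend on the threshold. In the order knockout against parental, FH-WT against knockout, FH-5xA against knockout, FH-WT against parental, FH-5xA against parental and FH-5xA minus FH-WT, a false discovery rate under 0.01 left 251, 22, 37, 176, 257 and 18 members called. A fold of at least 2 left 25, 6, 6, 36, 32 and 3. No share of all genes at these settings is given here, so whether members lost more calls than other genes is not shown. The 673 members that overlap no other gene had 183, 44, 39, 156, 179 and 42 called. As percent of these members that was 27.2, 6.54, 5.79, 23.2, 26.6 and 6.24. The 527 members with no shared window, an alternative chosen after seeing the data, had 131, 28, 33, 99, 154 and 28. Their percents were 24.9, 5.31, 6.26, 18.8, 29.2 and 5.31. In these last 2 the smaller number of members lowers the counts by construction. With the variance taken as the sum of the squared SEs against the knockout, which counts the knockout variance 2 times, 0 members differed between FH-5xA and FH-WT by that chi-square test, with a smallest adjusted p of 0.0922, while 156 members (50 higher, 106 lower) had an unadjusted p under 0.05. The medians of the members kept their direction under the alternatives run, and that of FH-5xA minus FH-WT went from -0.05 to -0.07 at a mean expression of at least 1 log2 CPM. The median difference between copy and parent lies near 0 and changed sign in 2 comparisons. For the knockout against parental cells it went from -0.0035 to 0.0012 with no shared window, and for FH-WT against parental cells from 0.0042 to -0.0015 with the parent by alignment and to -0.013 with no shared window. Of the named values, centring on the median of all genes outside chromosome 7 left 767 as they were, with 5 losing their call and 2 gaining one. No paired analysis was possible because the tables hold no values per library, and for the same reason no library was left out in turn. Low expression limits the precision of many members.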

Other observations

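A pair of members too low for the naming rule had the widest fold changes and were chosen after their values were seen. ENSG00000225813, on chromosome 2 in an intron of a gene on the other strand and with no coding parent found by alignment, had fitted levels of 0.093 CPM in parental cells, 0.11 in the knockout, 0.999 with FH-WT and 0.867 with FH-5xA. In the authors' deposited tables it rose by 3.23 ± 0.82 (FH-WT) and 3.03 ± 0.80 (FH-5xA) over the knockout, with edgeR false discovery rates of 0.0030 and 0.0038. Both reconstituted lines thus stood above both other groups, although at levels so near 0 the fitted fold depends on the prior count and is no bound. PTP4A1P7, a copy of a phosphatase gene on chromosome 1, had 0.244 CPM in parental cells, 0.928 in the knockout, 0.684 with FH-WT and 1.39 with FH-5xA, and rose by 1.93 ± 0.48 in the knockout and by 2.52 ± 0.47 in FH-5xA against parental cells in the authors' deposited tables.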
